A study of Brassica napus with 27 samples.

Results

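The 200 genes described here had higher RNA levels in leaves of a double fah mutant of oilseed rape after 2 short days than in long days, while the same ratio in a single fah mutant and in wild type was held within set limits. They were chosen from 119532 gene entries by their measured values. Counts were scaled to the library total as counts-per-million (CPM), and 0.1 CPM was added to each mean before a ratio was taken. All 3 double-line SD2 libraries had to lie above all 3 wild-type SD2 and all 3 double-line LD libraries, with a double-line SD2 mean of at least 5 CPM. The SD2/LD ratio of means had to lie between 0.5 and 1.99 in both the single line and wild type. This left 1102 genes, and the 200 of largest SD2/LD ratio in the double line were kept, where a ratio of at least 2 was asked for. The LD and SD2 libraries therefore chose the genes, and what they show is given as a description with no test. The SD1 libraries took no part in the choice, and comparisons between genotypes at SD1 were tested.

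The study sequenced leaf RNA of Brassica napus in 9 groups of 3 libraries. The double line (bnafah, line A52_4) carries mutations in BnaA06FAH and BnaC05FAH, the single line (bnaa06fah, line A17_10) carries the BnaA06FAH mutation, and wild type is the cultivar Westar (control). Each genotype was sampled in long days (LD), 1 day after transfer to short days (SD1) and 2 days after transfer (SD2). Seedlings had spent 5 days on MS medium and 2 weeks in soil under long days before the transfer, and the study addresses the programmed cell death of the mutants. The study's design text describes transgene-free CRISPR/Cas9 lines with null alleles, whereas sample labels speak of knock-down, and each mutant genotype is represented by 1 line. The growth text of the labels gives the same hours of light for LD and SD, so the stages are named here as labelled. The labels do not tie replicates to separate plants, so a p-value reflects the spread among the libraries sequenced, which could be technical. The FAH transcripts themselves are not analysed here. The leaf label was not checked, since none of the tested genes with a name was on the leaf marker list.

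FAH, fumarylacetoacetate hydrolase, is the last enzyme of tyrosine degradation, and its loss in Arabidopsis causes cell death in short days. Secreted and membrane proteins fold in the endoplasmic reticulum with the help of chaperones, among them BiP, an HSP70 protein, and calreticulin, a lectin that binds calcium. When unfolded proteins build up there, plant cells raise the transcription of such chaperones, which is known as the unfolded protein response. BiP and a calreticulin gene are 2 of the 3 genes in the list that carry a name.

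Library totals ran between 49700648 and 58862553 counts, and correlations of log2 CPM between replicates were 0.883 to 0.957, lowest among the double-line SD2 libraries. One of these libraries stood apart for the genes described. Double-line SD2 replicate 2 was the lowest of its group for 190 of the 200 genes, against 49% of all tested genes. Its level was a median 0.371 of the mean of replicates 1 and 3, compared with 0.846 over all tested genes. The median ratio to the double-line LD mean was 6.15 in replicate 1, 2.25 in replicate 2 and 6.50 in replicate 3. Values below are given for each library, so that they can be read with and without replicate 2. When replicate 2 was left out of the rule, 4035 genes met it and the 200 of largest ratio shared 95 with the list. Leaving out replicate 1 or replicate 3 kept 170 and 162 of the genes.

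**Figure D1:**
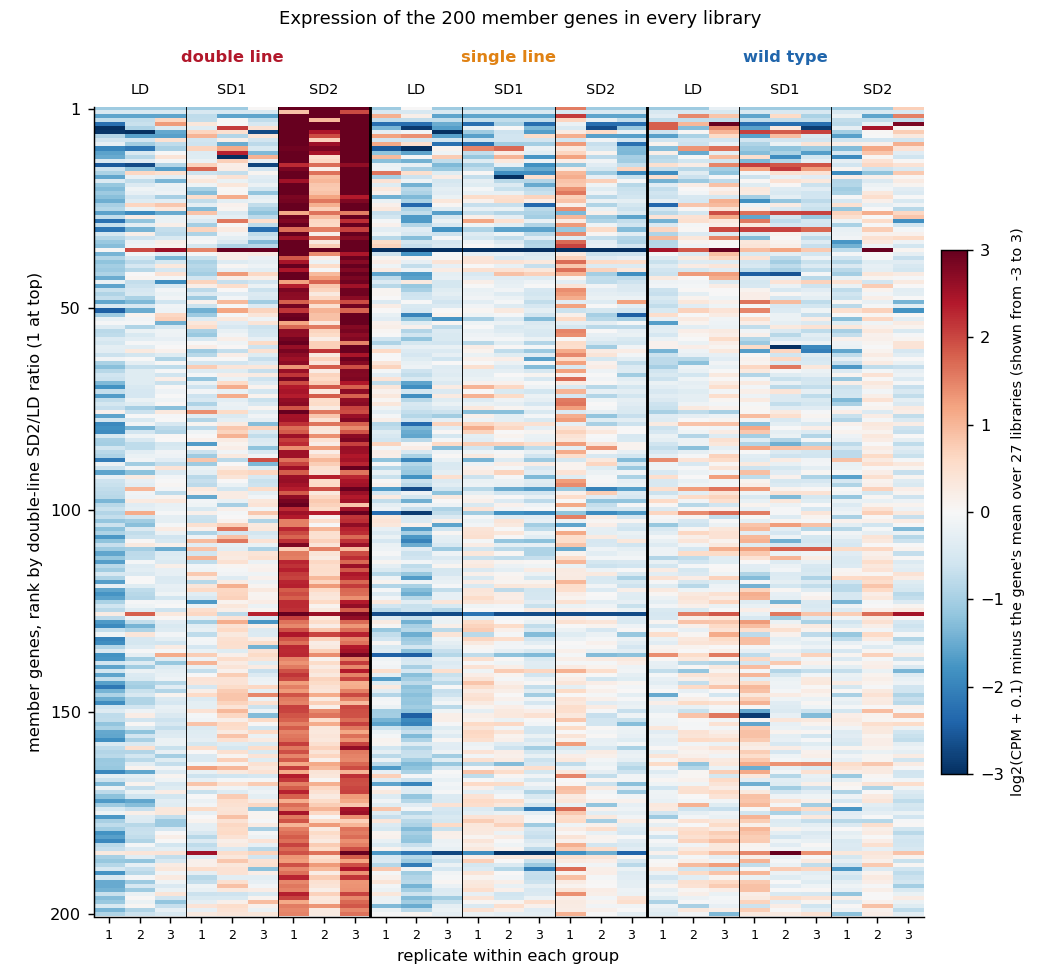
Heat map of the 200 genes (rows, ordered by SD2/LD ratio in the double line) in all 27 libraries (columns, by genotype, stage and replicate); the colour is log2(CPM + 0.1) minus the mean of the gene over all libraries, cut at -3 and 3. Double-line SD2 replicates 1 and 3 are the darkest columns, replicate 2 is paler, and single-line SD2 replicate 1 stands slightly above the rest of its genotype.

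The SD2/LD ratio in the double line ran between 3.76 and 289 with a median of 5.14. It was 10 or more for 22 genes, 6 to under 10 for 46, 3 to under 4 for 31, and 4 to under 6 for the rest. In the single line the median SD2/LD ratio of the same genes was 1.46 (1.11 over all tested genes) and in wild type it was 0.905 (1.09 over all tested genes). The last genes inside the list were LOC106433052 and LOC106425980, both with a ratio of 3.76, and the first outside were LOC106411904 with 3.74 and LOC106440193 with 3.73.

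Together the 200 genes took 2.13%, 0.853% and 2.34% of all counts in the 3 double-line SD2 libraries. Their summed level in the double line was 3369 ± 938 CPM in LD, 5245 ± 895 CPM at SD1 and 17751 ± 8060 CPM at SD2 (mean ± SD, n = 3). In the single line the sums were 3268 ± 951, 4938 ± 813 and 4801 ± 2078 CPM in LD, SD1 and SD2, and in wild type they were 4734 ± 956, 4216 ± 103 and 4732 ± 844 CPM. The double-line SD2 libraries held 21280, 8528 and 23444 CPM, so replicate 2 had a smaller sum than the other two but still a larger one than any library of another group. In leaves, more cells with these transcripts and more transcripts per cell cannot be told apart.

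The double-line SD1 mean lay between its LD and SD2 means for 154 of the 200 genes, below the LD mean for 45 and above the SD2 mean for 0. All 3 double-line SD2 libraries were above all 3 double-line SD1 libraries for 136 genes, which holds for 7.77% of tested genes. They were above all 3 single-line SD2 libraries for 122 (13.7% of tested genes), above all 3 single-line SD1 libraries for 158 (12.8%) and above all 3 single-line LD libraries for 189 (26.7%). They were also above all 3 wild-type LD libraries for 150 (18.9%) and above all 3 wild-type SD1 libraries for 134 (11.1%). For 63 genes (0.884% of tested genes) the 3 double-line SD2 libraries were above every other library of the study. These libraries chose the genes, so nothing is read from the counts beyond the values.

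The list also holds genes that were low in double-line LD leaves. The double-line LD mean was below the wild-type LD mean for 169 genes, with a median ratio of 0.712, compared with 0.956 over all tested genes. By that median, most tested genes also had a double-line LD mean below the wild-type one. All 3 double-line LD libraries were below all 3 wild-type LD libraries for 54 (10.1% of tested genes) and above them for 3 (5.24%). The double-line LD mean is the denominator of the ratio that ranked the genes, so a low value there favoured a place in the list. Double-line SD2 levels relative to wild-type SD2 had a median ratio of 4.10 and relative to single-line SD2 a median of 3.57.

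BiP (LOC106345946), the luminal HSP70 chaperone of the endoplasmic reticulum, was ranked 22 with a ratio of 10.2. It had 380, 66.0 and 379 CPM in the 3 double-line SD2 libraries, against 17.1, 30.4 and 32.9 CPM in double-line LD libraries. At SD2 the single line had 109, 33.0 and 23.5 CPM and wild type had 18.7, 45.0 and 27.2 CPM. Replicate 2 of the double line lay closer to the wild-type values than to the other double-line replicates, and single-line replicate 1 lay above it, so the mutant lines overlapped at SD2. At SD1, the stage that the rule did not use, BiP had 14.9, 38 and 15.9 CPM in double-line libraries, 31.3, 31.3 and 22.9 CPM in single-line libraries and 43.7, 26.4 and 24.2 CPM in wild type. These SD1 groups overlapped, with a log2 fold change of -0.42 ± 0.56 (SE) in the double line against wild type (edgeR adjusted p = 1).

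Crt1 (LOC106415836), the calreticulin gene, had a ratio of 4.68. It had 158, 50.2 and 172 CPM in double-line SD2 libraries and 17.1, 32.7 and 31.2 CPM in double-line LD libraries. The single line had 45.7, 26.6 and 28 CPM at SD2 and wild type had 12.9, 32.0 and 24.9 CPM. Unlike for BiP, all 3 double-line SD2 libraries lay above all 3 single-line SD2 libraries, though replicate 2 by little. At SD1 the levels were 10.2, 35.6 and 38.9 CPM in double-line libraries, 43.3, 41.6 and 26.3 CPM in single-line libraries and 25.5, 12.4 and 24.7 CPM in wild type. The double line again overlapped wild type at SD1 (log2 fold change 0.44 ± 0.46, edgeR adjusted p = 1). On the FPKM scale, which corrects for gene length, BiP had 163, 28.1 and 163 and Crt1 had 87.3, 27.6 and 96.1 in double-line SD2 libraries. By this scale BiP was the higher of the pair in replicates 1 and 3, and the pair were close in replicate 2.

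LSC222 (LOC106360896) was ranked 61 with a ratio of 6.23. It had 52.3, 31.9 and 56.4 CPM in double-line SD2 libraries and 5.76, 8.76 and 7.80 CPM in double-line LD libraries. The single line had 15.5, 8.55 and 8.44 CPM at SD2 and wild type had 2.36, 7.67 and 5.06 CPM. Here replicate 2 of the double line was also the lowest of its group, yet more than any single-line or wild-type library. At SD1 LSC222 had 3.31, 4.31 and 9.89 CPM in double-line libraries, 7.69, 4.18 and 3.33 CPM in single-line libraries and 2.21, 11.2 and 1.65 CPM in wild type. The log2 fold change of the double line against wild type at SD1 was 0.22 ± 0.57 (edgeR adjusted p = 1), and it turned negative when double-line SD1 replicate 3 (-0.31), wild-type SD1 replicate 1 (-0.12) or wild-type SD1 replicate 3 (-0.20) was left out.

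**Figure D2:**
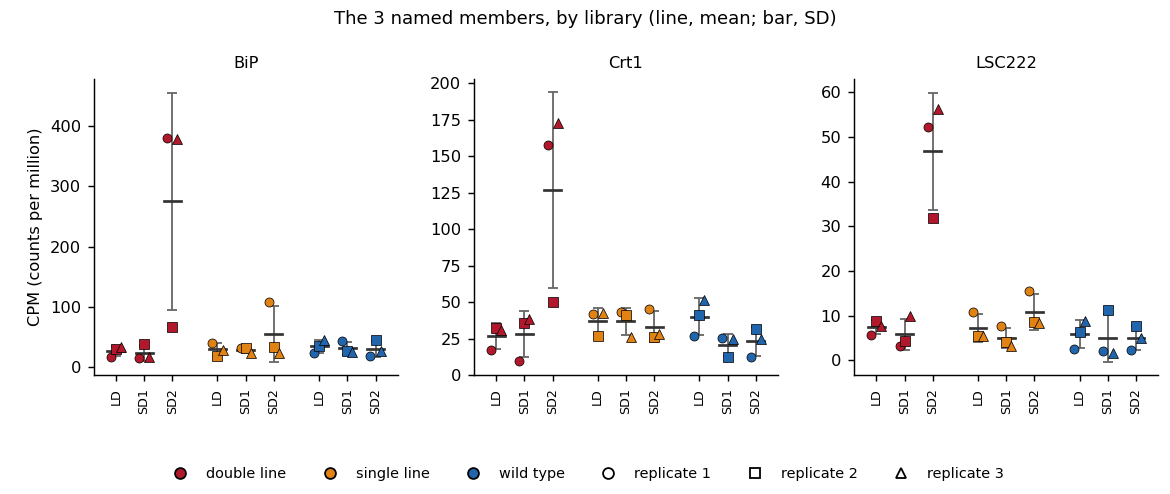
Levels in CPM (y axis) of BiP, Crt1 and LSC222 in each library, by genotype and stage (x axis); marker shapes are replicates 1 to 3, lines are means and bars are SD. In all 3 panels the double-line SD2 replicates 1 and 3 are the highest points, and replicate 2 (square) is lower, at 66.0 CPM for BiP, 50.2 CPM for Crt1 and 31.9 CPM for LSC222.

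The other 197 genes carry identifiers without a name, and no function is given to them here. Of the 480 tested genes with a name, 30 were WRKY genes and 14 were MYB genes, both families of transcription factors. None of these was in the list (0 of 30 and 0 of 14), but only 0.275% of all tested genes were, so counts of 0 in families of this size do not set them apart. BiP was the only gene of the list reached by a name pattern for protein folding in the endoplasmic reticulum. That pattern matched only 2 tested genes with a name, and the match other than BiP was a false one.

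The 10 genes of largest ratio had 1.16 CPM or less in each double-line LD library, which makes their ratios large. LOC106452536, ranked first with a ratio of 289, had 19.8, 1.89 and 64.7 CPM in the double-line SD2 libraries and 0 CPM in all 3 double-line LD libraries. Its highest value in any library of the single line was 0.501 CPM and in any of wild type 0.243 CPM. All 3 double-line SD2 libraries were thus above every other library, with a 10-fold or larger gap between replicate 2 and each of the other two.

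LOC106425571, ranked second with a ratio of 208, had 0.157, 61.4 and 0.449 CPM in the double-line SD2 libraries, from 9, 3514 and 25 counts. It had a count of 0 in all libraries of every other group. Its place in the list rests on replicate 2, the reverse of most of the genes. This gene did not pass the filter on low counts and was not tested.

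LOC106352449, ranked 4, had 26.0, 0.227 and 6.13 CPM, and LOC106350926, ranked 9, had 13.9, 0.140 and 3.22 CPM in double-line SD2 libraries. Both were at or under 0.161 CPM in every other library, and their order over the replicates was the same. LOC106350926 was the other gene of the list that did not pass the filter. In all, 3 genes were at 0.5 CPM or less, 6 at 1 CPM or less and 12 at 2 CPM or less in every library other than the double-line SD2 libraries.

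LOC111206280, ranked 3, had 7.58, 4.93 and 23.8 CPM in double-line SD2 libraries and 0 CPM in double-line LD libraries. LOC111198044, ranked 5, had 36.5, 8.40 and 54.2 CPM at SD2 and 0, 0.203 and 1.07 CPM in LD. LOC106372489, ranked 6 with a ratio of 58.3, had 25.7, 20.5 and 32.6 CPM at SD2 and 0, 0.424 and 0.633 CPM in LD. The SD2 values of LOC106372489 lay closer together than those of the other two, and its highest value in another genotype was 5.40 CPM, in wild-type SD2 replicate 2. At SD1 it had 0.677, 4.13 and 1.27 CPM in double-line libraries, 0.726, 0.893 and 0.298 CPM in single-line libraries and 0.227, 1.15 and 0.0370 CPM in wild type. The double-line SD1 libraries overlapped the wild-type ones (log2 fold change 2.19 ± 1.08, edgeR adjusted p = 0.852). LOC111198044 had 0.508, 0.377 and 0.246 CPM in double-line SD1 libraries and a count of 0 in wild-type SD1 libraries, at least 6.78-fold higher against a floor of 3 counts per library (edgeR adjusted p = 0.616). LOC111206280 had the lowest log2 fold change of the list in the double line against wild type at SD1, -2.34 ± 2.12, and was not called. Its counts were few there, with a wild-type SD1 mean of 0.134 CPM and a count of 0 in single-line SD1 libraries.

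LOC106395293, ranked 8, had 4.74, 1.10 and 10.4 CPM, and LOC106375268, ranked 10, had 6.88, 2.67 and 15.4 CPM in double-line SD2 libraries. Both had their highest value in replicate 3 and their lowest in replicate 2. LOC106445333, ranked 7 with a ratio of 46.0, had 33.0, 19.5 and 47.2 CPM at SD2 and 0.384, 0.332 and 1.16 CPM in LD in the double line. It differed from the rest of the 10 in its wild-type SD1 level of 15.1, 12.7 and 14.7 CPM.

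The 5 genes of highest double-line SD2 mean CPM included LOC106353334, which alone held 3259, 2475 and 4742 CPM in double-line SD2 libraries, against 501, 1182 and 826 CPM in double-line LD libraries. It was also abundant elsewhere, with 1181, 765 and 474 CPM in single-line SD2 libraries and 1297, 1634 and 1704 CPM in wild-type SD2 libraries. Without it the summed level of the list in the double line was 2533 ± 675 CPM in LD, 3595 ± 730 CPM at SD1 and 14259 ± 7114 CPM at SD2 (mean ± SD, n = 3).

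LOC106376022 had 787, 146 and 902 CPM in double-line SD2 libraries, 290, 99.8 and 96.1 CPM in single-line SD2 libraries and 79.4, 113 and 98.4 CPM in wild-type SD2 libraries. LOC106382750 had 658, 155 and 581 CPM in double-line SD2 libraries, 253, 105 and 89.3 CPM in single-line SD2 libraries and 74.7, 114 and 81.4 CPM in wild-type SD2 libraries. LOC106438331 had 532, 147 and 569 CPM in double-line SD2 libraries, 167, 76.9 and 79.2 CPM in single-line SD2 libraries and 74.8, 78.5 and 83.7 CPM in wild-type SD2 libraries. In all 3 genes the double-line replicate 2 was the lowest of its group, and single-line replicate 1 exceeded it.

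Single-line SD2 replicate 1 exceeded double-line SD2 replicate 2 for 72 of the 200 genes (55.7% of tested genes), so this order did not hold for most of the list. Within its own group, single-line SD2 replicate 1 was the highest of its group for 159 of the 200 genes (46.0% of tested genes), and for 103 it was above the other 8 single-line libraries (19.6% of tested genes). The median ratio to the single-line LD mean was 1.84 in replicate 1, 1.18 in replicate 2 and 1.00 in replicate 3. The rule kept the single-line mean ratio under 1.99, so a single-line gain larger than that could not occur in the list. A cause of the unequal replicates was not tested.

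**Figure D3:**
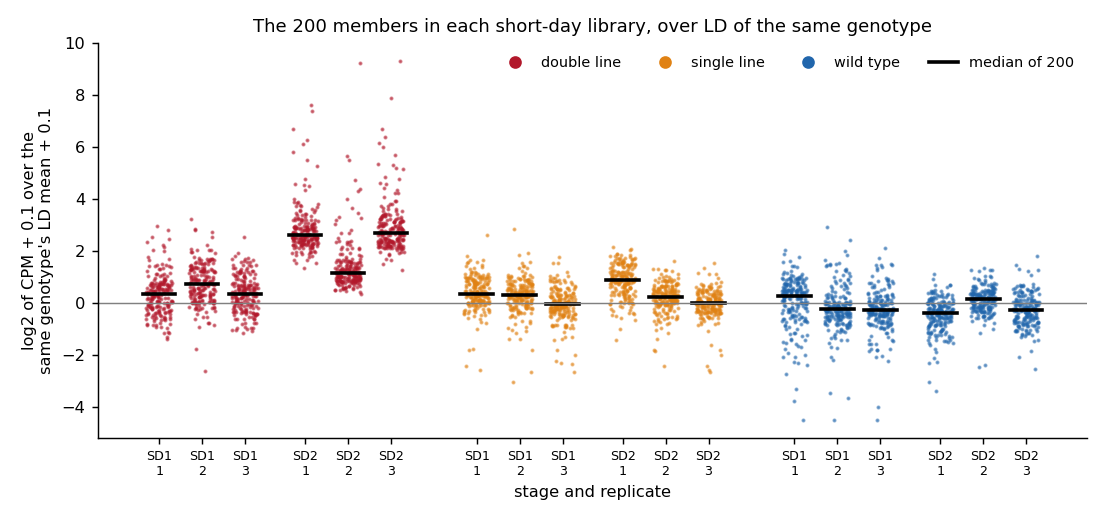
Each point is 1 of the 200 genes in 1 short-day library (x axis, by genotype, stage and replicate), as log2 of its CPM + 0.1 over the LD mean + 0.1 of the same genotype (y axis); black lines are medians. The double-line SD2 medians correspond to ratios of 6.15, 2.25 and 6.50, while single-line SD2 replicate 1 has the highest median of the single line, at a ratio of 1.84.

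The first short day was then compared between genotypes, with libraries that had no part in the choice of the genes. Of the 200 genes, 198 had enough counts for the test. The filter used all 9 groups, so a gene could pass by its double-line SD2 counts, which the rule had chosen as high. A gene with few counts at SD1 could then hardly be called. For LOC106452536 and LOC106352449 the log2 fold change of the single line against wild type was 0. The spread was estimated over all 27 libraries, LD and SD2 included. The uneven double-line SD2 replicates of these genes could widen that spread, which would make calls in the list less likely. In the double line against wild type, 0 of 198 passed an edgeR adjusted p of 0.05 (0.565% of all tested genes did, 0.353% as higher and 0.212% as lower). At an unadjusted p under 0.05, 16 were higher and 8 lower in the double line (3.38% and 2.57% of all tested genes), and DESeq2 called 5 at an adjusted p of 0.05 (1.23% of all tested genes). The 5 genes called by DESeq2 were LOC106446477, LOC106387575 and LOC106388266, higher in the double line, and LOC106437278 and LOC106391616, lower in it. By edgeR, 1 gene, LOC106437278, was called without double-line SD1 replicate 1 (0.388% of tested genes), and 1 gene, LOC106446477, without double-line SD1 replicate 3 (0.442%). The median log2 fold change of the 198 was -0.01, with quartiles of -0.28 and 0.39, and that of all tested genes was 0.01. The median of the list ran between -0.31 and 0.24 with 1 library left out, so it had no stable sign. Among the 198, 97 had a positive value and the rest a negative one. All 3 double-line SD1 libraries were above all 3 wild-type SD1 libraries for 20 of the 200 (4.53% of tested genes) and below them for 14 (5.08%). In simulated data of this comparison, a fold change of 4 was recovered for 84% of changed genes and one of 2 for 15%. Small differences at SD1 would thus mostly have been missed. These rates were not split by expression level. Among the 200 genes the lower quartile of SD1 means was 3.25 CPM for the double line, and for wild type it was 3.62 CPM. The rates therefore do not cover genes of the list below 5 CPM, and for these they could be too high.

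The 10 genes of smallest p in this comparison went both ways. LOC106446477 came closest to the threshold, with 298, 257 and 156 CPM in double-line SD1 libraries, 129, 148 and 182 CPM in single-line SD1 libraries and 45.6, 108 and 95.9 CPM in wild-type SD1 libraries. Double-line SD1 lay above wild-type SD1 without overlap, with a log2 fold change of 1.54 ± 0.37 (edgeR adjusted p = 0.0690). It passed with DESeq2 and, in edgeR, without double-line SD1 replicate 3. This gene also had 539, 247 and 494 CPM in double-line SD2 libraries against 58.5, 138 and 119 CPM in double-line LD libraries. It therefore stood above its LD mean in the double line at both stages.

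LOC106387575 had 33.7, 55.1 and 27.9 CPM in the double line, against 9.82, 17.8 and 15.8 CPM in wild type at SD1. LOC106388266 had 54.1, 78.7 and 35.9 CPM in the double line, against 13.6, 29.6 and 25.5 CPM in wild type at SD1. Neither pair of groups overlapped, with log2 fold changes of 1.47 ± 0.41 and 1.34 ± 0.39, and neither passed the test (edgeR adjusted p = 0.170 and 0.20), while DESeq2 called both. LOC106396176 had 120, 182 and 67.9 CPM in double-line libraries, 122, 118 and 134 CPM in single-line libraries and 41.6, 67.7 and 56.2 CPM in wild type at SD1. Its level was alike in both mutant lines and above wild type in all 6 of their libraries, with a log2 fold change of 1.20 ± 0.41 in the double line (edgeR adjusted p = 0.419) and 1.18 ± 0.41 in the single line (adjusted p = 0.175), both against wild type. LOC106445910, the remaining gene with a positive value among the 10, had 1.03, 7.22 and 0.493 CPM in the double line, against 0.510, 0.673 and 0.370 CPM in wild type, with a log2 fold change of 2.60 ± 0.84 (edgeR adjusted p = 0.352). Its double-line replicate 2 stood well above the other two.

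**Figure D4:**
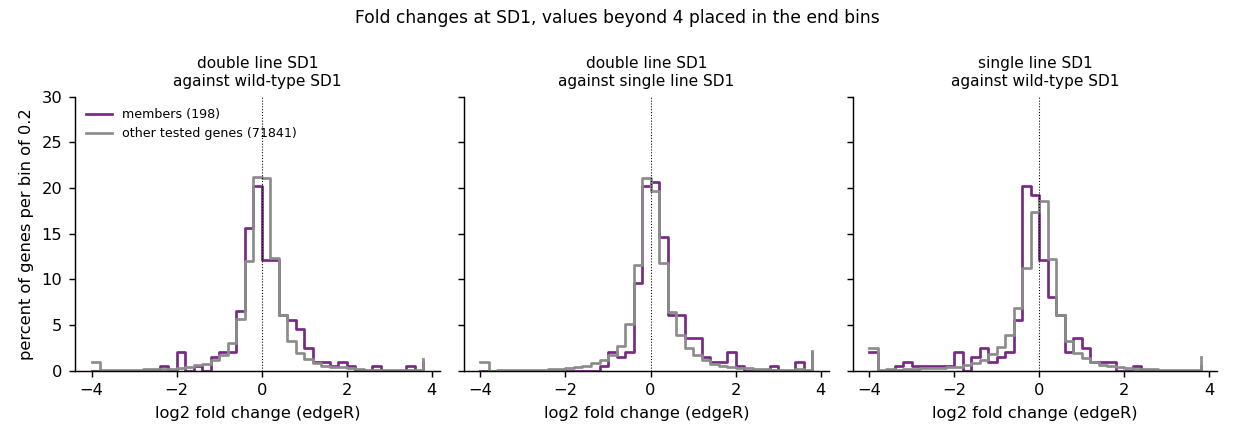
Distribution of edgeR log2 fold changes at SD1 (x axis; values beyond 4 are placed in the end bins) for the 198 tested genes of the list and for all other tested genes, as percent of genes per bin of 0.2 (y axis). The medians of the list are -0.01 for the double line against wild type, 0.12 for the double line against the single line and -0.12 for the single line against wild type.

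The other 5 of the 10 were highest in wild type on the first short day. LOC106437278 had 29.7, 13.0 and 8.60 CPM in double-line libraries, 11.2, 9.33 and 8.62 CPM in single-line libraries and 38.8, 55.7 and 56.6 CPM in wild type at SD1. LOC106391616 had 14.9, 5.94 and 3.47 CPM in double-line libraries, 4.89, 4.34 and 4.19 CPM in single-line libraries and 25.8, 32.7 and 33.6 CPM in wild type at SD1. LOC106445219 had 12.7, 8.94 and 1.08 CPM in double-line libraries, 3.85, 6.60 and 2.14 CPM in single-line libraries and 33.3, 28.6 and 29.0 CPM in wild type at SD1. In each of these genes all 6 mutant libraries lay under all 3 wild-type libraries.

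The same order held for LOC106352917, with 17, 12.5 and 2.12 CPM in double-line libraries, 5.55, 3.41 and 3.41 CPM in single-line libraries and 44.2, 43.5 and 35.5 CPM in wild type. LOC106415947 had 5.04, 5.70 and 7.33 CPM in double-line libraries, 2.94, 2.11 and 3.74 CPM in single-line libraries and 11.6, 13.6 and 14.4 CPM in wild type. The log2 fold changes of the double line against wild type were -1.56 ± 0.43 for LOC106437278, -1.93 ± 0.56 for LOC106391616, -1.98 ± 0.64 for LOC106445219, -1.94 ± 0.63 for LOC106352917 and -1.14 ± 0.33 for LOC106415947. None of the 5 passed (edgeR adjusted p between 0.152 and 0.357). DESeq2 called LOC106437278 and LOC106391616 as lower in the double line, and LOC106437278 also passed in edgeR without double-line SD1 replicate 1. In the single line against wild type all 5 passed, with log2 fold changes of -2.38 ± 0.44 (edgeR adjusted p = 0.00131), -2.78 ± 0.58 (adjusted p = 0.00478), -2.86 ± 0.66 (adjusted p = 0.0132), -3.34 ± 0.67 (adjusted p = 0.00342) and -2.17 ± 0.34 (adjusted p = 0.000142) in the same order of genes. The call of LOC106445219 was lost without single-line SD1 replicate 1 or replicate 3. These 5 genes were picked by small p against the same wild-type SD1 libraries, so high values there favoured the single-line calls.

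LOC106445333 showed the same order at SD1. It had 5.62, 4.96 and 0.455 CPM in double-line libraries, 1.63, 2.28 and 1.06 CPM in single-line libraries and 15.1, 12.7 and 14.7 CPM in wild type. The log2 fold change was -1.91 ± 0.75 in the double line (edgeR adjusted p = 0.627) and -3.10 ± 0.79 in the single line (adjusted p = 0.0276), both against wild type. The single-line call of LOC106445333 was lost when any 1 of the 6 libraries compared was left out. The wild-type SD1 mean was at least 2 times both the LD and the SD2 mean for 9 genes of the list (0.891% of tested genes), and the single-line SD1 mean was for 1 (0.466%). The wild-type SD1 mean exceeded the double-line SD2 mean for 3 genes, LOC106437278, LOC106391616 and LOC106352917. At SD1 the highest level of these 3 genes was thus in wild type, not in the double line.

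In the double line against the single line at SD1, 6 of 198 were called, all higher and 0 lower (2.15% of all tested genes were called, 1.69% higher and 0.457% lower). The median log2 fold change was 0.12, against 0.02 over all tested genes. It ran between -0.15 and 0.25 with 1 library left out, was negative without double-line SD1 replicate 2 and was near 0 without single-line SD1 replicate 3, and the replicate SD of the list's median level on the log2 scale was 0.32. All 3 double-line libraries were above all 3 single-line libraries for 20 of the 200 (6.11% of tested genes) and below for 7 (5.16%). In the single line against wild type, 2 of 198 were called higher and 14 lower (3.07% of all tested genes were called, 0.823% higher and 2.24% lower). The median was -0.12, against -0.01 over all tested genes. It ran between -0.22 and 0.20 with 1 library left out, was positive without wild-type SD1 replicate 1 and near 0 without single-line SD1 replicate 3, against a replicate SD of 0.29. All 3 single-line libraries were above all 3 wild-type libraries for 24 of the 200 (8.37%) and below for 26 (9.89%). Without single-line SD1 replicate 2, 10 genes of the list were called in this comparison (2.22% of tested genes), and without single-line SD1 replicate 3, 9 were (2.28%). The called genes that follow, other than those above, were chosen after their values were seen. The comparisons share libraries, and their values for a gene are given side by side.

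For 3 of the called genes the single line was low at every stage. LOC106415094 had a count of 0 in all 9 single-line libraries. At SD1 it had 5.98, 21.8 and 18.5 CPM in the double line, against 3.98, 4.78 and 3.63 CPM in wild type. Against a floor of 3 counts per library, the double line was at least 273-fold higher than the single line (edgeR adjusted p = 0.000658), and the single line was at least 73.2-fold lower than wild type (adjusted p = 0.00420). LOC106377035 had 93.2, 23.1 and 25.7 CPM in double-line libraries, 4.32, 1.66 and 1.96 CPM in single-line libraries and 43.6, 129 and 41.3 CPM in wild type at SD1. The log2 fold change was 4.17 ± 0.55 in the double against the single line (edgeR adjusted p = 1.78e-05) and -4.77 ± 0.57 in the single line against wild type (adjusted p = 3.25e-06).

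LOC106415426 had 0.884, 0.274 and 3.09 CPM in double-line libraries, 0.0392, 0 and 0 CPM in single-line libraries and 0.453, 1.82 and 1.05 CPM in wild type at SD1. Its single-line libraries lay under all others at that stage (edgeR adjusted p = 0.00275 for the double against the single line and 0.00373 for the single line against wild type). In the double line against wild type these 3 genes did not pass, with log2 fold changes of 1.93 ± 0.89, -0.60 ± 0.48 and 0.30 ± 0.77 (edgeR adjusted p = 0.828, 1 and 1). All 3 are placed on chromosome C8 of the Da-Ae assembly. This chromosome held 14 of the 163 placed and tested genes of the list, and 3118 of all 55442. The 3 genes were chosen after their values were seen, and their position was not tested. For LOC106415094 the SD2/LD ratio of the single line that the rule used was 1 by construction, since both means were 0.

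The other genes called in the double against the single line were LOC106346305 (log2 fold change 1.93 ± 0.50, edgeR adjusted p = 0.0420), LOC106438277 (1.77 ± 0.46, adjusted p = 0.0382) and LOC106402128 (1.37 ± 0.33, adjusted p = 0.0243). LOC106346305 had 8.59, 7.48 and 13.8 CPM in double-line libraries, 3.69, 2.13 and 2.01 CPM in single-line libraries and 22.8, 7.62 and 10.1 CPM in wild type at SD1. LOC106402128 had 8.01, 4.62 and 5.36 CPM in double-line libraries, 2.37, 2.21 and 2.33 CPM in single-line libraries and 5.21, 7.86 and 4.48 CPM in wild type. LOC106438277 had 3.06, 1.73 and 0.852 CPM in double-line libraries, 0.412, 0.419 and 0.801 CPM in single-line libraries and 1.17, 1.38 and 1.09 CPM in wild type. In all 3 genes the double line overlapped wild type, and every single-line library lay under both. Without double-line SD1 replicate 1, single-line SD1 replicate 1 or single-line SD1 replicate 2, 3 genes were called in place of 6 (1.75%, 1.74% and 1.72% of tested genes), and LOC106346305, LOC106438277 and LOC106402128 did not pass. LOC106346305 did not pass without any other 1 of the 6 libraries either, LOC106438277 without double-line SD1 replicate 2, and LOC106402128 without single-line SD1 replicate 3. With the replicate number as a block, LOC106346305 and LOC106438277 did not pass. LOC106346305 also failed with no filter on low counts and without the double-line SD2 libraries in the fit. LOC106438277 also failed with only the 6 libraries compared.

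In the single line against wild type the genes called higher were LOC106362348, with 46.5, 45.1 and 39.6 CPM in the single line and 14.8, 10.2 and 14.5 CPM in wild type, and LOC106362166, with 62.1, 83.5 and 65.5 CPM in the single line and 16.0, 25.3 and 32.6 CPM in wild type. The groups did not overlap, with log2 fold changes of 1.72 ± 0.43 (edgeR adjusted p = 0.0254) and 1.53 ± 0.42 (adjusted p = 0.0499). Neither call held when any 1 of the 6 libraries compared was left out. The call of LOC106362166 was also lost with RLE size factors in place of TMM and with no filter on low counts. At SD1 the double line had 8.61, 30.1 and 21.4 CPM of LOC106362348 and 33.9, 46.1 and 49.7 CPM of LOC106362166, between the single line and wild type on average. At SD2 these genes had 131, 32.2 and 116 CPM and 416, 170 and 398 CPM in the double line.

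Among the genes called lower in the single line were also LOC106346305 (-2.41 ± 0.51, edgeR adjusted p = 0.00537) and LOC106402128 (-1.34 ± 0.33, adjusted p = 0.0227), described above. The first of these calls was lost without wild-type SD1 replicate 1, and the second without any 1 single-line SD1 library or wild-type SD1 replicate 2. The remaining 3 were LOC111197880 (log2 fold change -3.02 ± 0.64, edgeR adjusted p = 0.00562), LOC106411572 (-1.95 ± 0.49, adjusted p = 0.0234) and LOC106402022 (-1.86 ± 0.49, adjusted p = 0.0331). LOC111197880 had 0.608, 0.365 and 0.317 CPM in single-line SD1 libraries and 2.62, 4.97 and 2.79 CPM in wild-type SD1 libraries. LOC106411572 had 5.81, 3.66 and 3.26 CPM in single-line SD1 libraries and 25.9, 11.2 and 10.8 CPM in wild-type SD1 libraries. In both genes the single line lay under wild type without overlap, but the call of LOC106411572 was lost without single-line SD1 replicate 2 or 3 or wild-type SD1 replicate 1, and that of LOC106402022 without any 1 of the 6 libraries.

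**Figure D5:**
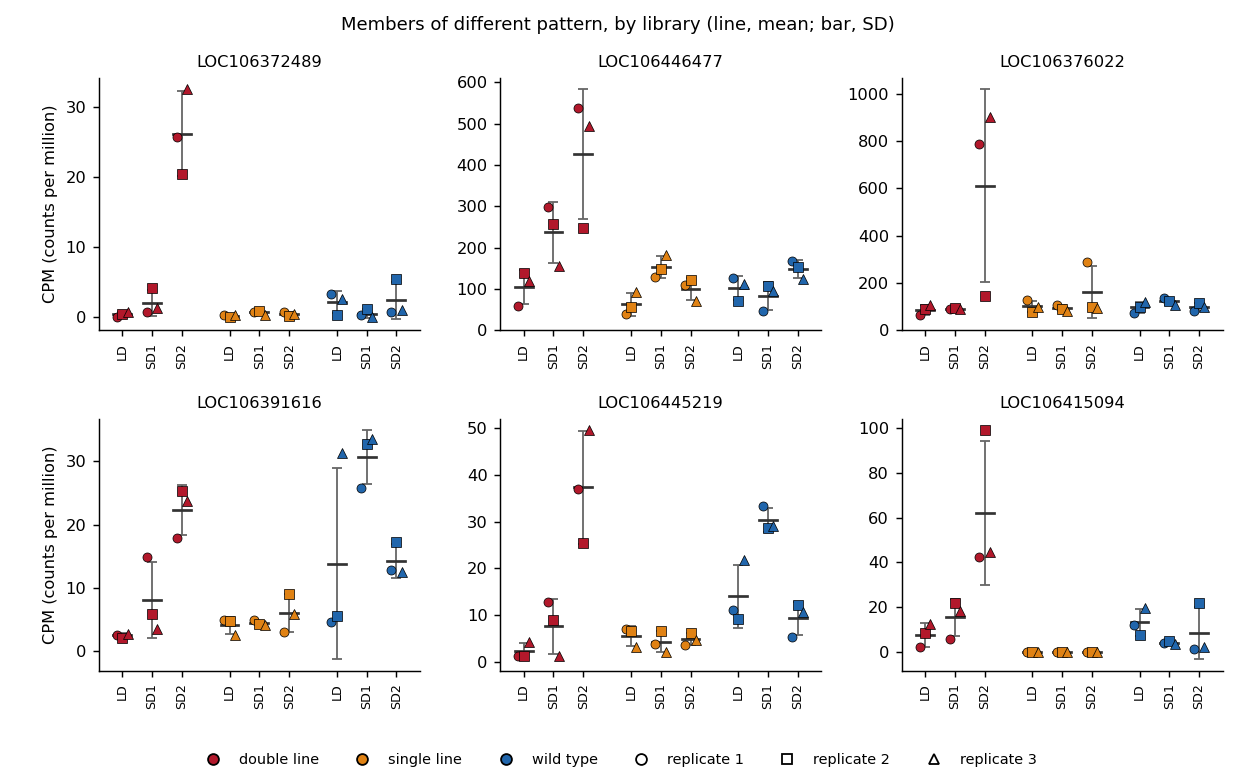
Levels in CPM (y axis) of 6 genes of the list in each library, by genotype and stage (x axis); marker shapes are replicates 1 to 3, lines are means and bars are SD. LOC106372489 is at 20.5 CPM or more in double-line SD2 and at 5.40 CPM or less elsewhere, LOC106446477 is also above wild type at SD1, LOC106376022 has a low double-line SD2 replicate 2 of 146 CPM, LOC106391616 and LOC106445219 have wild-type SD1 values of 25.8 CPM or more, and LOC106415094 is at 0 in the single line.

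Between stages, the double-line SD1/LD ratio was 2 or more for 51 of the 200 genes (7.1% of tested genes), the single-line ratio for 15 (7.3%) and the wild-type ratio for 13 (6.77%). The median SD1/LD ratio was 1.41 in the double line, 1.18 in the single line and 0.965 in wild type, and over all tested genes it was 1.11, 1.11 and 1.05. The LD libraries helped to choose the genes, the double-line ones by their low level, so these ratios are descriptions. Of the 200 genes, 165 were matched to the Da-Ae assembly, 164 as protein-coding genes and 1 as a pseudogene, and 35 were not matched.

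The genes were spread over both subgenomes of this allotetraploid plant. On the A chromosomes 79 of 25982 tested and placed genes were in the list, or 0.304%, and on the C chromosomes 84 of 29460, or 0.285%. By chromosome the share ran between 0.0773% on C6, with 2 genes, and 0.467% on A6, with 13 genes. Among the 163 genes of the list that were tested and placed, 3 pairs lay within 5 tested genes of each other. They were LOC106346291 and LOC106346289 on A6, LOC106352916 and LOC106352917 on A7, and LOC106362348 and LOC106362347 on A8. Genes without a match to the assembly could not be counted, so further pairs could exist. Across the 27 libraries 11 pairs, with 21 genes, had a Pearson correlation of log2(CPM + 0.1) of 0.99 or more, the highest being 0.999 for LOC106360720 and LOC106358819. LOC106376022 was in one such pair with LOC106415003, and LOC106382750 in another with LOC106421940. The points of such a correlation share libraries, and the separate counts of near-identical genes are uncertain, since the authors' counting could divide reads between copies.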

How the data were processed

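Leaf RNA was sequenced in 27 libraries, prepared per the labels with the TruSeq v2 kit. The submitters' processing notes name Trim Galore and HISAT2. Tool versions, the genome build and the way of counting, not given in the sources used here, could not be checked. The counts per gene are used as deposited by the authors, and their deposited FPKM values served as a check: 198 of the 200 genes met the same non-overlap of libraries in FPKM. The 1 entry that names no gene was left out of tests and, at 2.61e-05% of counts or less per library, does not affect CPM. The edgeR 4.0.16 test (R 4.3.3) used a filter by group, TMM and a robust quasi-likelihood fit of 72039 genes over all 27 libraries, with 18 residual degrees of freedom, Benjamini-Hochberg adjustment over all tested genes and a threshold of 0.05. DESeq2 1.42.0 was an alternative. The self-test on simulated data of the double line against wild type at SD1 called 103 genes, 4 of them falsely. Floors cover counting error only.

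Names and chromosomes come from a RefSeq table of Da-Ae, without coordinates. It gives no product descriptions, so of 40 lists of gene families and markers only name matches could be used. The genes and lists were chosen with earlier results of these data known. Described are genes with a name, the 10 of largest ratio, the 10 of smallest p and the 5 lowest at SD1 in the double line against wild type, the 5 of highest double-line SD2 level and those at the edge of the rule.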

Additional observations from a re-analysis of the deposited data

How the results depend on the processing

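The count of 0 genes called in the double line against wild type at SD1 was 5 with DESeq2 and 0 to 1 with a library left out, and the median log2 fold change was -0.31 to 0.24. Over all genes, 407 calls became 210 with only the 6 libraries compared, 885 with DESeq2 and 266 to 402 with a library left out, the lowest without wild-type SD1 replicate 2. For the double against the single line, leaving out a library gave 3 to 6 calls in the list, medians of -0.15 to 0.25 and 1271 to 1531 calls over all genes. For the single line against wild type it gave 9 to 12 calls, medians of -0.22 to 0.20 and 1639 to 1950 calls over all genes, and the median was positive without wild-type SD1 replicate 1. The list itself shared 95 to 170 genes with lists made without 1 double-line SD2 library, an alternative chosen after seeing the data, 152 with TMM-scaled CPM, 171 with FPKM and 144 with 1 CPM added to means. The log2 fold change of LSC222 in the double line against wild type at SD1 ran between -0.31 and 1.54 with a library left out, and was -0.31, -0.12 and -0.20 without the libraries named above. The cause was not tested.

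At SD1, replicate numbers did not pair the samples. Correlations between genotypes were taken of log2 CPM after each gene's group mean was subtracted. For same-numbered SD1 libraries these correlations were -0.18 to 0.16. Between differently numbered SD1 libraries they were -0.16 to 0.24, the highest for double-line replicate 1 and wild-type replicate 2. Whether libraries shared a batch under other numbers was not tested. With a replicate block, 0, 4 and 16 genes of the list were called in the 3 comparisons, and 377, 1480 and 2054 over all genes. Groups of 3 libraries limit the precision, and genes with few counts are limited by depth.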
